A study of Mus musculus with 8 samples.

Results

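A set of 8 genes associated with the trophoblast was followed over 8 Affymetrix arrays of mouse J1 embryonic stem cells: Cdx2, Hand1, Gata2, Gata3, Tfap2a, Tfap2c, Msx2 and Plac1. Members were found as the probe sets annotated to 1 of these symbols alone, which gave 15 probe sets among 20380 with a single symbol, and 8 genes among 12393. Of these, 7 encode transcription factors. Plac1 does not: it encodes a placental protein that carries a signal peptide, and it was kept as a marker.

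There were 4 groups of 2 arrays, all from J1, an embryonic stem cell line described as grown on gelatin in serum with leukemia inhibitory factor (LIF): cells on day 4 of differentiation, cells with Fbxl19 shRNA1, cells with Fbxl19 shRNA2, and cells with a control hairpin (shControl). The protein made from Fbxl19 carries an F-box and, in its CXXC zinc finger, a contact surface for CpG DNA without methylation. The study asked how expression changes when it is knocked down. How differentiation was carried out, whether the day 4 cells carried a hairpin, and whether replicates were separate cultures are not given. The p-values therefore speak only to how far these arrays differ, which may be technical. There were 0 probe sets annotated to Fbxl19, so its knockdown was not analysed here.

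The trophoblast is the outer lineage of the early embryo and gives rise to the fetal part of the placenta. In the mouse embryo Cdx2 is a homeobox factor that helps to set this lineage apart from the inner cell mass. Embryonic stem cells derive from the latter. Gata3, Tfap2c and the T-box factor Eomes act in the same early network as Cdx2. Hand1 acts later, in the giant cells that invade the uterus. Most of these factors also act in other tissues, Hand1 in lateral mesoderm and heart, Gata2 in blood, Tfap2a in surface ectoderm and neural crest, Tfap2c in germ cells and Msx2 in limb and skull, so that none marks trophoblast by itself.

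The deposited values are on a log2 scale after RMA, a method that corrects background, equalises the distributions of arrays and summarises the probes of a probe set. They ran from 1.96 to 14.26. No measure of background was given, so a value under the lower quartile of its array (3.79 to 3.90) is called dim here, and a change from or to a dim level is given on the log2 scale with no fold. Replicate 2 of shControl stood apart, with a median of 5.81 where the other arrays had 5.70 to 5.76. Across genes, the SD of the difference between partner arrays was 0.41 for day 4, 0.20 for shRNA1, 0.22 for shRNA2 and 0.31 for shControl. Stem cell markers were bright in all undifferentiated groups: Pou5f1, the Oct4 gene, read 12.15 and 12.23 on day 4 and 12.31 to 12.57 on the other arrays. Nanog read 9.88 and 9.94 on day 4 and 11.54 to 11.70 on the others.

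The promoters of 6 of the 8 genes were in a table of windows from 250 bases before to 50 after a gene's start (RefSeq, build GRCm38.p6). Those of 5 genes are shown because the protein targeted in the study binds CpG DNA. Each CpG dinucleotide is in capitals, and for genes with several windows the most upstream is printed.
Msx2 (chr13:53472731-53473030, minus strand): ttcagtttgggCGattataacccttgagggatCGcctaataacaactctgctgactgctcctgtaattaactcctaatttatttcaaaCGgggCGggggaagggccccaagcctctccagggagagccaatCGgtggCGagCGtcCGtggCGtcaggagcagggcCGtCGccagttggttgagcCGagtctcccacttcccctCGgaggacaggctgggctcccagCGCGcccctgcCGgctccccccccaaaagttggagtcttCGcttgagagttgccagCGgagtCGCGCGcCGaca
Tfap2a (chr13:40734871-40735170, minus strand): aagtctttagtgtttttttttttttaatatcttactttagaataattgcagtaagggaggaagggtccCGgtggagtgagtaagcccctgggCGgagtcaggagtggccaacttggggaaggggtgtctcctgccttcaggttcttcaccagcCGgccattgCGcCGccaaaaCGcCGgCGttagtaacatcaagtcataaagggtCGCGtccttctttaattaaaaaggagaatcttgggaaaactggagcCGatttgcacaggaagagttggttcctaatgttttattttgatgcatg
Cdx2 (chr5:147307200-147307499, minus strand): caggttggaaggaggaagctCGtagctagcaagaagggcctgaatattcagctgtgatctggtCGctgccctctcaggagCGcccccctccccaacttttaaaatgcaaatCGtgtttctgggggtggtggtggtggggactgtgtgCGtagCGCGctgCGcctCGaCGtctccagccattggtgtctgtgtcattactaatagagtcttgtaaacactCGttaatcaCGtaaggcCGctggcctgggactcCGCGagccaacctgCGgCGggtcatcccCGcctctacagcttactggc
Gata3 (chr2:9878551-9878850, minus strand): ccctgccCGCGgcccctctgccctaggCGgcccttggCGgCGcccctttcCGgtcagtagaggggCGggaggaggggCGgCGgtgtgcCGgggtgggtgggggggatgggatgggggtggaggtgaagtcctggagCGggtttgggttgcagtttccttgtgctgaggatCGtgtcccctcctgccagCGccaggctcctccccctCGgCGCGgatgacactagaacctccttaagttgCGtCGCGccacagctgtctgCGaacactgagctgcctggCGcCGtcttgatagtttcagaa
Plac1 (chrX:53240061-53240360, minus strand): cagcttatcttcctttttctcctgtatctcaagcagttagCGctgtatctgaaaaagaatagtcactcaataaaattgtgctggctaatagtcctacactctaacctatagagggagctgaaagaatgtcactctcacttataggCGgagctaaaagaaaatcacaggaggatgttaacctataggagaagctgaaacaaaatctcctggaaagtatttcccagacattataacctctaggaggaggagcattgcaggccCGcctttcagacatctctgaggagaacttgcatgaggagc
The windows of Msx2 and Gata3 held 22 CpG each and that of Cdx2 18. The 2 windows of Tfap2a held 11 and 15, and those of Gata2 32 and 29. Over all 32851 windows the median was 7 and the quartiles were 3 and 20, so all windows of these 5 genes lay above the median. Plac1, on the X chromosome, differed from them, with 3 and 6 CpG in its windows. The motif of the AP-2 factors, GCCNNNGGC, which reads the same on both strands, occurred 3 times in the Gata3 window, and once in that of Cdx2 and in the second Gata2 window, while 16.6% of all windows held it. The core GATAA, searched on both strands, occurred in the first Plac1 window only, against 25.4% of all windows. GGGCGG, the GC box, was present on either strand in the windows of Msx2, Gata2, Gata3 and Tfap2a and in the second of Plac1 (35.7% of all windows). The TATA box sequence TATAAA was in none of the 9 windows (13.6% of all windows, both strands). These are matches of letters and were not tested as sites.

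**Figure D1:**
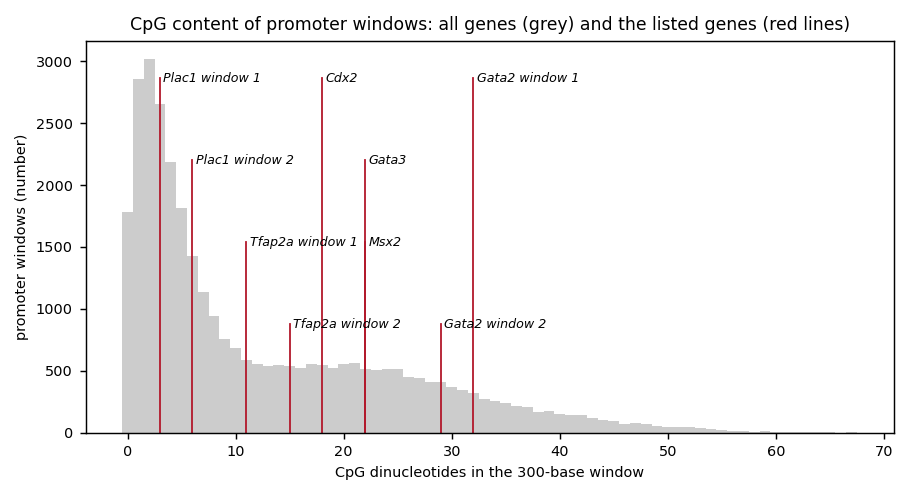
Number of promoter windows (vertical axis) by their number of CpG dinucleotides in 300 bases (horizontal axis), for all windows in grey, with a red line at each window of the listed genes (line heights only separate the labels). The windows of Plac1 lie at 3 and 6, and those of the 5 transcription factor genes from 11 to 32.

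On day 4, Msx2, Tfap2a and Cdx2 rose and Tfap2c fell, while Gata3 was high on 1 of 2 arrays and Hand1, Gata2 and Plac1 did not pass the test. Genes were tested with limma, with 1 probe set per gene, the one with the highest mean over the arrays, and a gene was called where its Benjamini-Hochberg adjusted p, over all 12393 genes, was under 0.05. Of the 8 genes, 4 were called (3 higher, 1 lower), while 16.4% of all genes were called in this comparison, 7.67% higher and 8.73% lower. Without shControl replicate 2, 2 of the 8 were called. The number of all genes called fell without that array as well, so the shares above do not apply to that count. The same holds for the gene lists below. With all arrays kept, the median change of the 8 genes was 0.50, and that of all genes -0.00058, both on the log2 scale. The list is short and was drawn up with earlier results known, so these figures describe it and no test of the list was made. The day 4 arrays lay wholly outside the shControl arrays for 6 of the 8 genes, which held for 50.4% of all genes.

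Msx2, a homeobox gene induced by bone morphogenetic protein (BMP) signals, gave the smallest p. Its level was 4.92 and 4.97 on the day 4 arrays, 3.67 and 3.43 with shRNA1, 3.34 and 3.59 with shRNA2, and 3.65 and 3.31 with shControl. Both day 4 arrays were above all others and close to each other, and the other 6 were dim. The change against shControl was 1.47 ± 0.17 on the log2 scale (SE, 2 against 2 arrays; limma adjusted p = 0.000491). Its paralog Msx1, which was not dim in shControl, rose by 0.49 ± 0.14 (adjusted p = 0.0394), and Msx3 had 0.07 ± 0.18.

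Tfap2a and Tfap2c encode AP-2 factors that bind the same motif, and they changed in opposite directions. Tfap2a read 6.53 and 5.57 on day 4, 4.43 and 4.29 with shRNA1, 4.26 and 4.56 with shRNA2, and 4.40 and 4.36 with shControl. The day 4 arrays were above the other 6, replicate 1 more so. Tfap2a rose by 1.67 ± 0.27, or 3.19-fold (adjusted p = 0.00309). A second probe set of Tfap2a gave 0.99 ± 0.25, with 5.06 and 4.54 on day 4 and 4.08 and 3.53 with shControl. The third, at 3.95 and 4.01 on day 4 and 4.04 and 3.75 with shControl, showed no such shift (0.09 ± 0.16). With the mean of the 3 probe sets the change was 0.92, which passed the test as well.

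Tfap2c read 6.59 and 5.26 on day 4, 8.23 and 8.39 with shRNA1, 8.25 and 8.51 with shRNA2, and 7.88 and 7.46 with shControl. Both day 4 arrays were below all others. Tfap2c fell by 1.75 ± 0.36 on the log2 scale, which is 3.37-fold lower (adjusted p = 0.0110). Its other probe sets had -1.73 ± 0.21 and -2.75 ± 0.28, so all 3 pointed the same way. The call of Tfap2c was lost without shControl replicate 1 (-1.54, adjusted p = 0.0864) and without replicate 2 (-1.96, adjusted p = 0.0624). In bulk RNA, fewer cells that express a gene and less RNA per cell cannot be told apart.

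Cdx2 had the smallest of the called changes. Its brighter probe set read 5.30 and 5.73 on day 4, 4.86 and 4.97 with shRNA1, 4.80 and 4.62 with shRNA2, and 4.84 and 5.02 with shControl. Both day 4 arrays were above the other 6, but the rise was 0.59 ± 0.17 and just passed (adjusted p = 0.0462). The other probe set had 0.24 ± 0.16, with day 4 arrays (4.15 and 4.31) that overlapped the shControl arrays (4.16 and 3.81). The call of Cdx2 was lost in 13 of 19 alternatives, among them every array left out but day 4 replicate 1 (0.37 without day 4 replicate 2, against 0.80 without replicate 1). Its paralogs did not pass: Cdx1 had 0.04 ± 0.18 and Cdx4 0.24 ± 0.12.

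Gata3 was uneven on day 4. It read 5.95 on replicate 1 and 3.61 on replicate 2, against 2.85 and 3.17 with shRNA1, 2.77 and 2.86 with shRNA2, and 2.70 and 2.96 with shControl. Replicate 1 alone was above the dim range, and the gap of 2.35 between the day 4 arrays was larger than that of 99.9% of genes. The change, 1.95 ± 0.58, did not pass (adjusted p = 0.0513). Taken with either day 4 array alone it did, with 0.78 without replicate 1 and 3.12 without replicate 2, where the lone array is assumed to vary like the other groups. Against the mean of all 3 undifferentiated groups, Gata3 had 1.90 ± 0.47 (adjusted p = 0.0193), a comparison in which 22.8% of all genes were called.

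**Figure D2:**
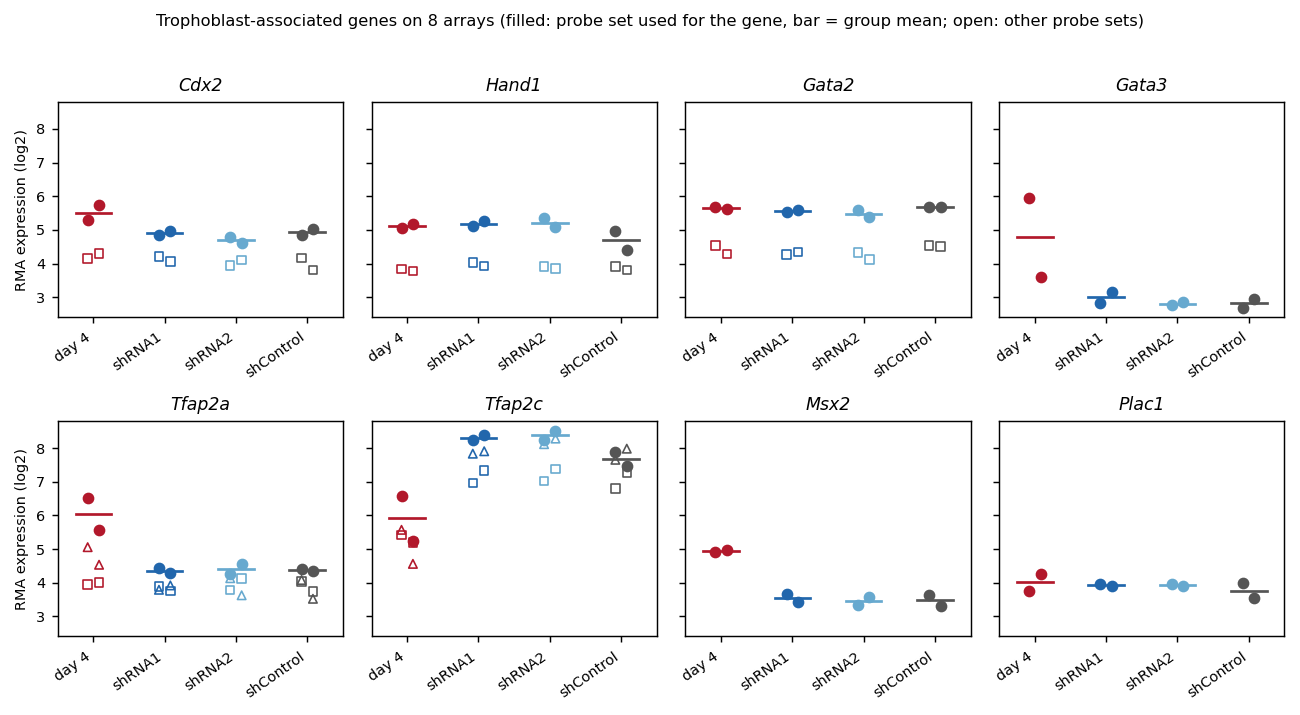
RMA expression on the log2 scale (vertical axis) of each gene on every array, by group (horizontal axis: day 4, shRNA1, shRNA2, shControl; 2 arrays each); filled points are the probe set used for the gene, the bar is its group mean, and open points are its other probe sets. Day 4 arrays lie above all others for Msx2, Tfap2a, Cdx2 and Gata3 and below all others for Tfap2c; levels of different genes are not comparable, since probes differ in brightness.

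Hand1, Gata2 and Plac1 were not called on day 4. Hand1 read 5.06 and 5.17 on day 4 and 4.98 and 4.41 with shControl (0.42 ± 0.20, adjusted p = 0.202), the spread lying in the control arrays. Its second probe set gave -0.05 ± 0.13, and against the mean of all 3 undifferentiated groups Hand1 had 0.08 ± 0.16 (adjusted p = 0.799). It was called without shControl replicate 1 (0.70, adjusted p = 0.0419). Gata2 read 5.69 and 5.63 on day 4 and 5.68 and 5.68 with shControl, a difference of -0.02 ± 0.13 with a 95% interval from -0.32 to 0.28. Plac1 read 3.76 and 4.28 on day 4 and 3.99 and 3.54 with shControl (0.25 ± 0.20), and these arrays overlapped. None of the GATA paralogs passed: Gata1, Gata4, Gata5 and Gata6 had changes of 0.06, -0.25, 0.12 and 0.05. Of 11 measured paralogs of all families, which also included Hand2, Tfap2b and Tfap2d, 1 rose, Msx1, and 10 did not pass. Of all genes, 7.67% were called higher. Without shControl replicate 2, and likewise without day 4 replicate 2, 0 paralogs were called.

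The day 4 arrays also differed in how far stem cell markers had gone down. The mean level of 12 stem cell markers was 9.40 on day 4 replicate 1 and 8.59 on replicate 2, against 10.73 to 10.95 on the 6 undifferentiated arrays. Of these markers 9 fell, among them Klf4 (-4.55 ± 0.37), Esrrb (-3.71 ± 0.63), Tfcp2l1 (-3.43 ± 0.57) and Zfp42 (-2.84 ± 0.45), all transcription factor genes of the naive state; 3 fell without shControl replicate 2. Gata3, Tfap2a and Tfap2c were all higher on replicate 1, the array with the higher marker level, by 2.35, 0.95 and 1.34. For the rest, replicate 1 minus replicate 2 was 0.06 for Gata2, -0.04 for Msx2, -0.11 for Hand1, -0.42 for Cdx2 and -0.51 for Plac1. The actin control probes at the 3' end read above those at the 5' end, a gap that reflects RNA quality, by 0.73 and 0.65 on day 4, 0.70 to 0.76 with the hairpins, and 0.60 and 0.54 with shControl. The part of marker level and RNA quality in these results was not tested.

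Other genes of the lineage were read from gene lists, and no list was tested as a set. Over all genes, 7.67% were called higher and 8.73% lower on day 4 with all 8 arrays in the fit. With an array left out, the number of all genes called moved too. These shares therefore do not apply to list counts from such fits. Of 15 measured regulators of trophoblast stem cells, 2 rose and 4 fell, with a median of -0.35. Eomes read 7.87 and 9.21 on day 4, 5.34 and 6.02 with shRNA1, 5.32 and 5.97 with shRNA2, and 5.55 and 6.14 with shControl, a rise of 2.70 ± 0.43 (adjusted p = 0.00305). Eomes also acts in the primitive streak. The other was Fgfr2, a receptor for fibroblast growth factors (0.60 ± 0.15). Those that fell were Bmp4 (-3.59 ± 0.16), a BMP ligand, Sox15 (-1.26 ± 0.22), Ets2 (-0.62 ± 0.14) and Esrrb, given above, which embryonic stem cells express as well. Klf5, also shared with embryonic stem cells, had -1.93 ± 0.61 and was not called. Nor was Elf5, a trophoblast factor, with 0.42 ± 0.15 (adjusted p = 0.0992) and a dim level in undifferentiated cells. Elf5 was named after its values were seen. Without shControl replicate 2, 1 regulator rose and 2 fell, without replicate 1 of shControl 1 and 4, and without day 4 replicate 1, 3 and 7.

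Of 27 markers of differentiated trophoblast 18 were measured, and Gcm1, Prl3d1, Prl2c2, Prl3b1, Syna and Synb were among those that were not. The shares of all genes called were 7.67% higher and 8.73% lower. Of the 18, 5 rose and 1 fell (median 0.20), and the counts were 1 and 0 without shControl replicate 2, 2 and 1 without its replicate 1, and 3 and 1 without day 4 replicate 2. The imprinted growth factor gene Igf2 had 0.73 ± 0.18, Flt1, which encodes a receptor for vascular endothelial growth factor, 0.71 ± 0.15, and the zinc finger gene Ovol2 0.63 ± 0.17. The others that rose were Tfrc, the transferrin receptor gene (0.55 ± 0.14), and Cdkn1c, which encodes a cell cycle inhibitor (0.54 ± 0.16). The homeobox gene Rhox6 fell by 1.35 ± 0.30. Lgals3, a galectin gene, had -1.58 ± 0.80 and Rhox9 -0.96 ± 0.43, and neither was called. Of genes named after their values were seen, Tpbpa, a marker of the spongiotrophoblast, read 3.47 and 3.63 on day 4 and 3.33 and 3.41 with shControl. Psg17 read 2.49 and 2.75 on day 4 and 2.65 and 2.57 with shControl. Both were dim on every array of these groups.

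The list of epithelial genes shared by trophoblast and surface ectoderm had the highest median of those examined, 1.30 over 15 genes. Of these, 10 were higher and 0 lower, against 7.67% and 8.73% of all genes. Cldn7, a tight junction claudin, rose by 3.98 ± 0.29, and read 9.96 and 9.88 on day 4 against 5.57 and 6.32 with shControl. The simple keratins Krt18 and Krt8 rose by 3.53 ± 0.24 and 2.83 ± 0.27, and Cldn6 by 3.05 ± 0.19. Without shControl replicate 2 the count was 6, with a median of 1.05. Without day 4 replicate 1 the median of the list was 0.97, and the called genes did not all go up. Against the mean of all 3 undifferentiated groups 7 were higher and 0 lower, with a median of 0.67. In that comparison 22.8% of all genes were called in either direction. For the mean of both hairpins the median of this list against shControl was 0.32, with 0 genes called by limma. An unadjusted p under 0.05 was reached by 4 of the 15, against 8.42% of all genes.

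Because the 8 genes act in other tissues too, lists for these were read beside them. Among all genes, 7.67% were called higher and 8.73% lower. In extra-embryonic and lateral mesoderm 2 of 17 genes rose and 3 fell, the rise of Evx1, a homeobox gene of the streak, being 1.48 ± 0.20, and the ligand gene Wnt3 having 0.91 ± 0.23. Tbx3 had -2.46 ± 0.62 and Kdr -0.89 ± 0.25, and the third that fell was Bmp4. In blood and endothelium 2 of 14 rose, Lmo2 (1.12 ± 0.22) and Cd34 (0.95 ± 0.24), and 2 fell, Pecam1 (-1.33 ± 0.30) and Tal1 (-0.92 ± 0.23). In neural crest 3 of 10 rose, Twist1 (0.96 ± 0.19), Dlx5 (0.56 ± 0.16) and Msx1, and in primitive endoderm 1 of 14 rose, Lamb1 (0.97 ± 0.13), and 2 fell, Lama1 (-2.74 ± 0.17) and Lamc1 (-1.07 ± 0.14), all of them laminin chain genes. Without shControl replicate 2 the counts higher and lower were 1 and 1 for mesoderm, 0 and 0 for blood and endothelium, 1 and 0 for neural crest, and 1 and 2 for primitive endoderm. Without shControl replicate 1 they were 2 and 1 for mesoderm and 1 and 0 for blood and endothelium. Without day 4 replicate 1 they were 3 and 3 for primitive endoderm, and without day 4 replicate 2 they were 1 and 0 for neural crest.

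Of 12 genes of the BMP response 5 rose and 0 fell (median 0.20; 3 without shControl replicate 2). They were Msx1 and Dlx5, given above, and Id2 (2.50 ± 0.22), Id1 (1.62 ± 0.17) and Id3 (1.53 ± 0.20), inhibitors of basic helix-loop-helix factors. The ligand gene Bmp4 fell as given above. Among all genes, 7.67% were called higher and 8.73% lower. Of 8 fibroblast genes 0 were called by limma, the largest changes being those of Thy1 (-0.98 ± 0.32) and Col1a2 (0.90 ± 0.27). An unadjusted p under 0.05 was reached by 2 of the 8, and by at least the 16.4% of all genes that were called. The mean level of the fibroblast list was 4.11 and 4.05 on day 4, 3.96 to 4.16 with the hairpins, and 3.99 and 3.93 with shControl. Without day 4 replicate 2, 1 fibroblast gene was called higher and 1 lower.

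**Figure D3:**
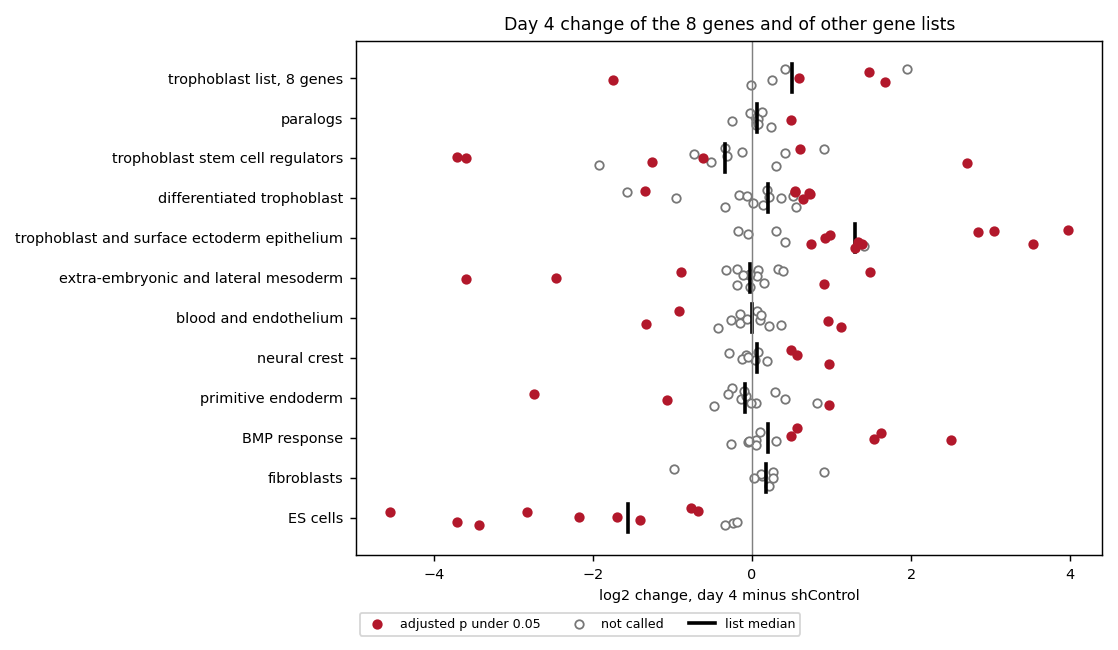
Log2 change on day 4 against shControl (horizontal axis) of each measured gene of the 8-gene set and of 11 other lists (rows; points are spread vertically for legibility); red points were called by limma, open points were not, and black bars are list medians. The epithelial list has the median furthest above 0 (1.30) and the stem cell markers the one furthest below (-1.56).

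With Fbxl19 knocked down, none of the 8 genes was called in the fit described above. For the mean of both hairpins the changes ran from -0.15 to 0.67 and the smallest limma adjusted p was 0.482, while 0.0726% of all genes were called. The count was 0 also with shRNA1 alone (0.242% of all genes) and shRNA2 alone, for which 0% of all genes were called. It was 0 as well between the hairpins (0.105%), where no gene differed by more than 0.21 on the probe set used for it. Another Tfap2c probe set had 0.33 ± 0.28 for shRNA2 minus shRNA1, and its shRNA2 arrays lay above its shRNA1 arrays. At an unadjusted p under 0.05, 1 of the 8 passed, Hand1, for the mean of both hairpins (8.42% of all genes), for shRNA1 (9.82%) and for shRNA2 (5.1%). The 3 comparisons with shControl share its 2 arrays, and their values are therefore not independent.

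Tfap2c and Hand1 had the largest changes. On the probe set used for it, Tfap2c was above both shControl arrays on all 4 knockdown arrays. The change was 0.64 ± 0.36 with shRNA1 and 0.71 ± 0.36 with shRNA2 (limma adjusted p = 0.623 and 0.978). These SE draw on the spread in all 4 groups. The SD of Tfap2c was 0.94 on day 4, 0.11 with shRNA1, 0.19 with shRNA2 and 0.30 with shControl. The other probe sets of Tfap2c gave 0.14 ± 0.18 and 0.22 ± 0.25 for the mean of both hairpins and overlapped shControl, and with the mean of all 3 probe sets it was 0.34. With the replicate number as a block and only the undifferentiated groups in the fit, an alternative chosen after seeing the data, the change of Tfap2c for the mean of both hairpins was called (0.67 ± 0.14, adjusted p = 0.0483). That alternative called 241 of all 12393 genes, against 9 in the fit described above. Hand1 read 5.11 and 5.25 with shRNA1 and 5.35 and 5.08 with shRNA2, against 4.98 and 4.41 with shControl. All 4 knockdown arrays were above both controls, by 0.50 ± 0.17 for the mean of both hairpins (adjusted p = 0.482), but the second Hand1 probe set gave 0.07 ± 0.11. Without shControl replicate 2 the change of Hand1 was 0.21, and without replicate 1 it was 0.78.

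Gata2 was the gene below both controls on all knockdown arrays. It read 5.54 and 5.59 with shRNA1 and 5.60 and 5.38 with shRNA2, against 5.68 and 5.68 with shControl, a change of -0.15 ± 0.11. Its second probe set lay below as well, with -0.26 ± 0.13. For 3 of the 8 genes the knockdown arrays did not overlap the shControl arrays (Tfap2c and Hand1 above, Gata2 below), against 20.1% of all genes. For the others the 95% intervals of the mean change were -0.45 to 0.21 for Cdx2, -0.30 to 0.36 for Msx2, -0.52 to 0.54 for Tfap2a, -0.23 to 0.56 for Plac1 and -1.05 to 1.22 for Gata3. The estimate of spread behind each interval is taken over all 4 groups. It therefore includes the day 4 arrays, which were uneven for Gata3 and Tfap2a, with SD of 1.66 and 0.67. In the other groups the SD was 0.07 to 0.23 for Gata3 and 0.03 to 0.21 for Tfap2a.

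Of 136 genes of the paralogs and other lists, limma called 0 for the mean of both hairpins (0.0726% of all genes). An unadjusted p under 0.05 was reached by 18, against 8.42% of all genes. With the replicate number as a block and all groups in the fit, 0 of the 136 were called. With the block and only the undifferentiated groups, a fit chosen after seeing the data, 5 were called, while 241 of all 12393 genes were. These 5 were Krt19 (adjusted p = 0.00401), Dsp (0.00291), Krt7 (0.0180) and Wnt6 (0.0224) of the epithelial list and Col4a1 (0.0153) of primitive endoderm, all higher. The SE of Krt19 was 0.67 without the block and 0.63 with the block and all groups in the fit. It was 0.13 with the block and only the undifferentiated groups. Among the largest changes were those of the epithelial genes Krt7 (1.30 ± 0.23, adjusted p = 0.116) and Krt19 (1.07 ± 0.67), and, among regulators of trophoblast stem cells, Sox15 (0.53 ± 0.19) and Satb1 (-0.48 ± 0.24). Krt7 read 4.89 and 4.86 with shRNA1 and 4.32 and 5.05 with shRNA2, against 3.81 and 3.15 with shControl. All 4 knockdown arrays were above both controls, which were dim. Of the markers of differentiated trophoblast, Ascl2, which encodes a factor of the spongiotrophoblast, had 0.47 ± 0.21 and Phlda2 -0.46 ± 0.15.

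**Figure D4:**
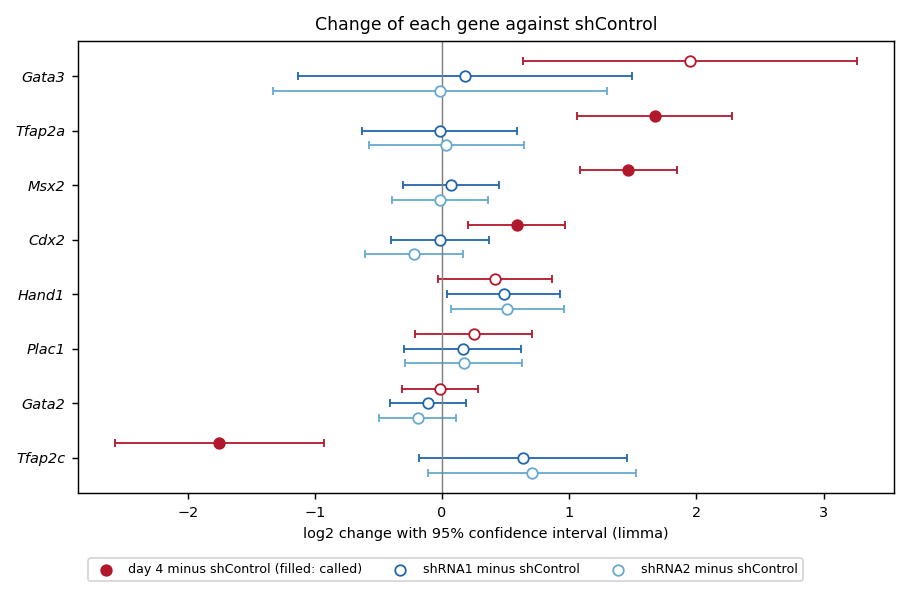
Log2 change against shControl (horizontal axis) with its 95% confidence interval from limma, for each gene (rows) on day 4, with shRNA1 and with shRNA2; filled points passed an adjusted p under 0.05. Those are Tfap2a, Msx2, Cdx2 and Tfap2c on day 4, and no point of either hairpin.

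Genes with the most similar pattern were sought by Pearson's r over the 8 arrays, among genes with an SD of at least 0.5 over them. Predicted genes and others without a proper symbol were left out of this search. The values describe these arrays, which share the large step between day 4 and the rest. Msx2 was closest to Lrrk2 (0.990), a kinase gene, and Reln (0.989), which encodes the matrix protein reelin. Tfap2a was closest to Fbxo4 (0.993) and the calponin gene Cnn2 (0.991), and Tfap2c to Tfpi (0.984) and Laptm5 (0.979). Gata3 was closest to Cpeb1 (0.990) and Syt9 (0.989). Its r rests mainly on day 4 replicate 1, where it read 5.95 against 2.70 to 3.61 on the other arrays. Syt9 was itself not called on day 4 (limma adjusted p = 0.123). Cdx2 was closest to Dnmt3b (0.975), a DNA methyltransferase gene, and Oasl2 (0.969). The highest r was 0.80 for Hand1 (with Ddit4l, then Krt7 with 0.76), 0.77 for Gata2 (Meis2, then Ccnd2 with 0.75) and 0.82 for Plac1 (Dusp2, then Myh6 with 0.79).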

How the data were processed

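The deposited values are log2 expression levels of each probe set on an Affymetrix array, which the submitters' processing notes credit to RMA. No source used here states its version or which arrays were normalized jointly. The labels name Cy3 as the dye. Groups were taken from sample titles; a free-text label names other Fbxl genes on some knockdown arrays, and titles were followed.

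Of 22690 probe sets, 64 array controls, 691 with several symbols and 1555 with none were left out. Symbols were matched by gene identifier to RefSeq. Per gene, the probe set with the highest mean was fitted with limma 3.58.1 in R 4.3.3 (lmFit, eBayes), each of the 4 groups having its own mean; SE are moderated. The model was tested on simulated data. Members and lists were chosen with earlier results of these data known. The rule for naming took all members and measured paralogs, up to 4 genes of each list with the largest day 4 change and 2 with the largest hairpin change, and the 2 genes most similar to each member. The alternatives tried are given in the closing section. The number of arrays limits the precision.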

Additional observations from a re-analysis of the deposited data

How the results depend on the processing

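Of the 8 genes, 4 were called on day 4 as reported. The count was 2 without shControl replicate 2 and ranged from 2 to 5 when single arrays were left out; it was 3 to 5 under the other alternatives (all probe sets in the test, probe sets averaged by gene, the dimmest 30% of genes left out, trend and robust settings of eBayes, a fit to the compared groups alone, array weights, a further quantile normalization, arrays centred on their median, the replicate number as a block, and day 4 against all 3 undifferentiated groups). Tfap2a was called in 19 of 19 alternatives and Msx2 in 18 of 18 (it is dim and drops out with the dimmest genes, as do Gata3 and Plac1), Tfap2c in 17 of 19, Cdx2 in 6 of 19, Gata3 in 5 of 18 and Hand1 in 1 of 19; Gata2 and Plac1 were called in 0. In the 4 comparisons of the hairpins the count of members called was 0 under every alternative run but 1, given below, while the number of all genes called ranged from 0 to 241 for the mean of both hairpins (9 as reported), from 2 to 703 for shRNA1 (30), from 0 to 200 for shRNA2 (0) and from 2 to 176 between the hairpins (13). With all arrays kept, the number of all genes called on day 4 ranged from 1145 to 2309, against 2033 as reported. It was 1145 with only the compared groups, 1328 with these and the replicate block, and 1191 with array weights. The number moved both ways when single arrays were left out, and fell furthest without shControl replicate 2.

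With the replicate number as a block, 5 of the 8 genes were called on day 4, Gata3 among them (1.95, adjusted p = 0.0466), and 0 in the hairpin comparisons. With the block and only the compared groups in the fit, chosen after seeing the data, 1 member was called for the mean of both hairpins, 1 for shRNA1 and 1 for shRNA2, Tfap2c each time (adjusted p = 0.0483, 0.00414 and 0.00499), and 0 between the hairpins. For the mean of both hairpins that fit called 241 of all genes. Either hairpin alone then leaves 4 arrays for 3 coefficients. Differences between replicates 2 and 1 correlated across genes with r = 0.504 between the hairpins, 0.261 and 0.226 between shControl and shRNA1 or shRNA2, and 0.070 between shControl and day 4; nothing in the labels says that a number marks a shared culture or day. The counts of the lists without single shControl and day 4 arrays were added after seeing the data. With 2 arrays a group and no measure of background, changes of dim genes are uncertain in size.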
